A study of Homo sapiens with 6 samples.

Results

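Cytosolic ribosomal protein genes encode the proteins of the ribosome that works in the cytoplasm. They were chosen by name: protein-coding genes on an autosome or the X chromosome whose GENCODE 29 name starts with RPL or RPS and a number, plus RPLP0, RPLP1, RPLP2 and RPSA. Names of the S6 kinases were dropped, and so were RPL19, RPL23 and 2 names on the Y chromosome. The rule found 87 genes among the 58735 gene IDs of the deposited files. Of these, 75 are the ubiquitous genes, 31 for the small subunit (RPS) and 44 for the large subunit (RPL). A further 8 are paralogs with an L in the suffix (RPL3L, RPL7L1, RPL10L, RPL22L1, RPL26L1, RPL36AL, RPL39L and RPS27L), which are read apart from the ubiquitous genes. The last 4 are 3 read-through names, which join a ribosomal gene to its neighbour, and RPS19BP1, which encodes a protein that binds RPS19 and is no ribosomal protein.

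Messenger RNA was sequenced from NCI-N87 cells, an established line of human gastric carcinoma. There were 6 libraries in 3 groups of 2: wild type (WT), and KRT17 knockout groups labelled KO1 and KO2. KRT17 encodes keratin 17, an intermediate filament protein of epithelia. The labels do not say whether KO1 and KO2 are guides or clones, nor whether replicates came from separate cultures, so the p-values below measure the spread between libraries, which may be technical.

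Each ribosome is built from ribosomal RNA and a single copy of most of these proteins, so their genes are among the most highly expressed in a growing cell. In vertebrates their messenger RNAs carry a terminal oligopyrimidine (TOP) tract, a C followed by a run of C and T at the transcription start, through which mTOR and LARP1 control their translation. Processed pseudogenes of these genes are scattered over the genome in large numbers, and short reads can be assigned to a pseudogene in place of its parent gene.

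The targeted gene followed the labels: KRT17 stood at 739 and 753 FPKM in WT, 2.29 and 2.40 FPKM in KO1, and 11.3 and 10.4 FPKM in KO2. FPKM is a number of fragments divided by exon length and library depth. The libraries held 17599759 to 22852340 reads, and the chi-square per degree of freedom between the 2 libraries of a group was 1.83 to 2.58, against 27.4 to 28.3 between KO1 and KO2 and 351 to 408 between WT and knockout libraries. The summed level of 8 markers of gastric epithelium was 3639 to 3740 FPKM in WT, 409 to 419 FPKM in KO1 and 366 to 367 FPKM in KO2. Of the 8, CDH1 (E-cadherin), EPCAM, KRT8, KRT18 and KRT19 were lower in both knockout groups, with a mean of CDH1 of 59.6, 0.155 and 0.494 FPKM and of KRT19 of 1728, 0.0937 and 0 FPKM in WT, KO1 and KO2. KRT8 and KRT18 stayed at 146 FPKM or more in every knockout library, MUC1 and TFF1 were higher, and CLDN18 was not tested. Some defining epithelial markers were thus near 0 in the knockout libraries although the labels give 1 line for all groups. Whether all libraries came from the same line was not tested, which bears on every difference between WT and knockout libraries given here. The summed level of 7 fibroblast markers was 0.760 to 0.907 FPKM in WT, 44.5 to 45.0 FPKM in KO1 and 55.3 to 57.8 FPKM in KO2, with COL1A2 and THY1 near 0 throughout. The summed levels of 5 leukocyte and 4 endothelial markers did not exceed 3.39 and 0.746 FPKM. The part of these marker differences in the results below was not tested, and in bulk RNA a change in the cells present and a change in RNA per cell cannot be told apart.

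All 75 ubiquitous genes were detected at 1 FPKM or more in at least 2 libraries, and most were abundant. In WT, 58 of 75 reached 100 FPKM, and their median level was 188 FPKM against 6.82 FPKM for protein-coding genes tested. RPS12, a small subunit protein, had the highest mean level in WT at 1252 FPKM, followed by RPL8 at 1101 FPKM and RPL41, the smallest protein of the set, at 1072 FPKM. RPS10 (1.07 FPKM), RPL36A (2.71 FPKM) and RPL17 (5.87 FPKM) were the lowest. Each of these 3 overlaps exons of a read-through gene on its own strand, RPL17 also those of small nucleolar RNA genes and another gene, together over 39.4%, 8.40% and 32.7% of its exon length, so their low levels are uncertain and do not show low expression. The levels also divide by the length of all annotated exons joined together, which for RPS29 is 9845 bases against a median coding transcript of 582.5 bases. Such a gene is understated beside others, while its ratio of FPKM between groups is not touched. The log2 differences below are of log2(FPKM + 1), where the added 1 shrinks a change more at lower levels. For RPS29 the ratio of mean FPKM of WT to KO1 was 2.05, while its log2 difference of -0.98 stayed short of 2-fold.

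The order of levels was nearly the same in the libraries of a group and looser between groups. Across the 75 genes, Spearman's rho was 0.998 between the WT libraries, 0.871 between WT and KO1 and 0.869 between WT and KO2. These are descriptions across genes that share libraries and lengths. In KO1 and KO2 the highest level was that of RPL8, at 961 and 867 FPKM, ahead of RPS12.

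The TOP tract could be seen at the starts of these genes in RefSeq (build GRCh38.p14). Promoters were at hand for 69 of the 87 members, 61 of them ubiquitous. The first motif searched was CTTTC, the second was CTTTT, the third motif was CTTCC and the last motif was TTTCC. They can overlap each other and were read on the gene's own strand only, from 5 bases before the start to 10 bases into the transcript. They were found in 41 of 61 ubiquitous genes (67.2%), against 8.67% of all 27305 promoters in the table. Of the other lists, 8 of 11 elongation factors and other known TOP messenger RNAs (72.7%), 5 of 19 initiation factors (26.3%), 11 of 70 mitochondrial ribosomal protein genes (15.7%) and 2 of 6 paralogs held a motif. Of the ubiquitous genes that were higher in KO1 than in WT, 12 of 17 with a promoter held the motif, and of those that were lower 22 of 33 did. For KO2 the counts were 10 of 13 and 24 of 35, so carriers of the motif were found on both sides. The letters TATA (gene's strand, 40 to 15 bases before the start) were found in 10 of 61 ubiquitous genes (16.4%) against 6.52% of all promoters. A match is a match of letters, not a site shown to work.

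To show the tract, the windows that follow run from 35 bases before the start to 15 bases into the transcript, 5′ to 3′ on the gene's strand, with the pyrimidine run at the start in capitals. RPS12 at chr6:132814534-132814583 (plus strand) is shown because it had the highest level and fell, and RPSA at chr3:39406685-39406734 (plus) and RPL14 at chr3:40457304-40457353 (plus) because they rose.
RPS12: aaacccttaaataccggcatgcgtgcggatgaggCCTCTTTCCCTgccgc
RPSA: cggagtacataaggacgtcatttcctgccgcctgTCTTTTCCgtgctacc
RPL14: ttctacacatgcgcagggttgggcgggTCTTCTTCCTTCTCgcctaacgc
The next 4 compare paralogs with their parents: RPL22 at chr1:6199581-6199630 (minus), RPL22L1 at chr3:170870181-170870230 (minus), RPS27 at chr1:153990727-153990776 (plus) and RPS27L at chr15:63157463-63157512 (minus).
RPL22: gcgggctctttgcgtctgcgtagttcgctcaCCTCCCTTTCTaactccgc
RPL22L1: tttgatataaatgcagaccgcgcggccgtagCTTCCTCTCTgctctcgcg
RPS27: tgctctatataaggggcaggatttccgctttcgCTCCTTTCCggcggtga
RPS27L: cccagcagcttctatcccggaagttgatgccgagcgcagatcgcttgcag
RPS12 and the RPSA and RPL14 windows carry the same kind of tract although the genes moved in opposite directions, and RPL22L1 has one where RPS27L has none.

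The comparison of each knockout group with WT asked how ribosomal protein messenger RNA differed in the libraries labelled as KRT17 knockout. In the reported fit most ubiquitous genes were lower in the knockout libraries, and a smaller set was higher. In KO1 against WT, 42 of 75 were lower, 18 higher and 15 not called (limma on log2(FPKM + 1), Benjamini-Hochberg adjusted p below 0.05 over 16046 genes). Of all genes tested, 77.8% were called in this comparison, 39.3% higher and 38.6% lower, so the share called (60 of 75) was near the background and only its split between lower and higher stood apart from it. The median log2 difference of the 75 genes was -0.21, beside 0.02 over all genes tested. In KO2 against WT, 47 of 75 were lower, 14 higher and 14 not called, where 78.9% of all genes were called, 39.1% higher and 39.8% lower. Here the median was -0.34, beside 0.01 over all genes. The 11800 protein-coding genes tested outside the members also leaned lower, to a smaller degree. In KO1, 39.8% of them were higher and 44.3% lower (median -0.05), and in KO2 39.5% and 45.5% (median -0.07).

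The lean toward lower values depended in size on how libraries were scaled. The genes higher in WT comparisons as a share of those called were 30.0% for KO1 and 23.0% for KO2. With libraries scaled by read total alone they were 41.7% and 35.5%, and they were 39.0% and 41.8% after quantile normalization and 40.9% and 38.5% with voom on reads. The read total alone put the median of all tested genes at 0.13 in KO1 and 0.14 in KO2, and voom put it at 0.16 and 0.17. Relative to that median, the ubiquitous genes stood at -0.25 and -0.31 with the read total and at -0.28 and -0.35 with voom, and in the reported fit at -0.23 and -0.34. Quantile normalization gave a smaller lean, of -0.12 and -0.16. Each of the 18 higher calls in KO1 and the 14 in KO2 was kept in all 4 other scalings, as were 33 of the 42 lower calls in KO1 and 39 of the 47 in KO2.

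**Figure D1:**
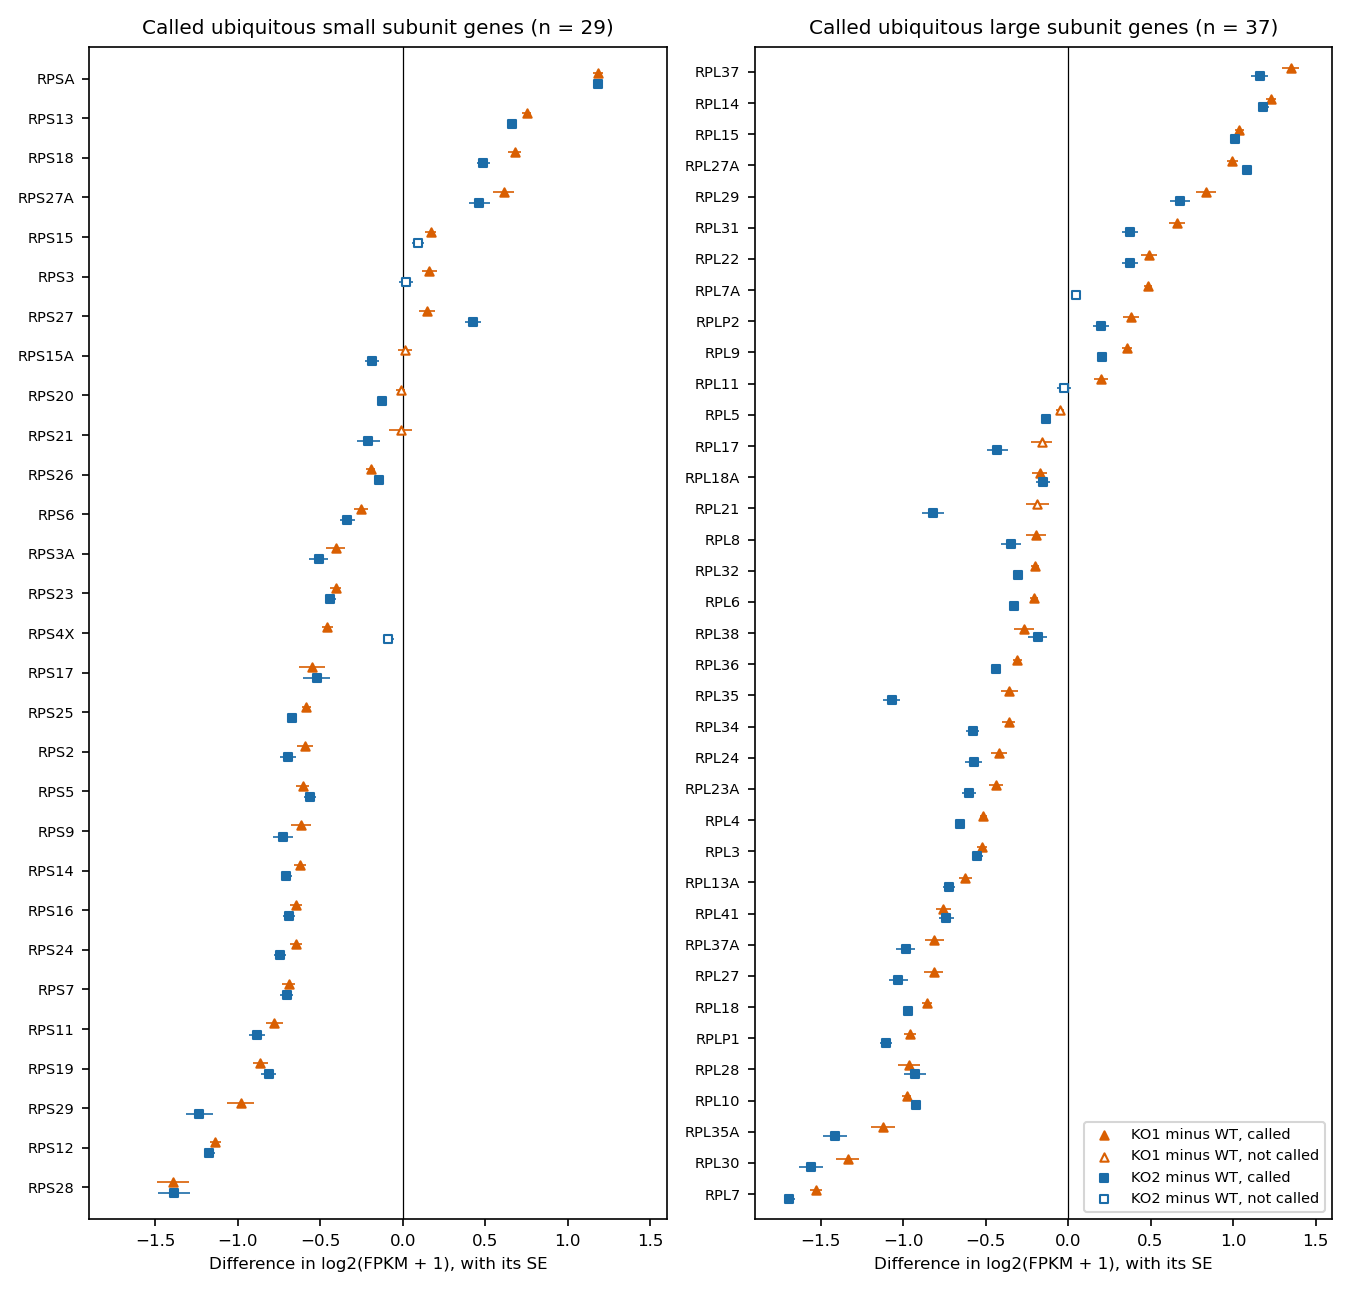
Difference in log2(FPKM + 1) from WT (x axis) of the 29 small subunit and 37 large subunit ubiquitous genes called in KO1, KO2 or both, ordered by KO1. Triangles are KO1 minus WT, squares KO2 minus WT, bars the SE of the limma fit, and filled symbols are called genes. In both subunits most symbols lie left of 0, from -1.69 (RPL7 in KO2) to 1.35 (RPL37 in KO1).

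Both subunits showed this mixture. In the small subunit 19 of 31 genes were lower and 7 higher in KO1, and 21 lower and 5 higher in KO2. In the large subunit 23 of 44 were lower and 11 higher in KO1, and 26 lower and 9 higher in KO2. Both comparisons use the same WT libraries. Side by side, 41 of the 75 genes were lower in both comparisons, 14 higher in both and 9 called in neither, where 35.5%, 34.8% and 14.8% of all genes tested were. Of the rest, 4 were higher and 1 lower in KO1 alone, and 6 were lower in KO2 alone, by the call threshold. Differences beyond 2-fold on the log2(FPKM + 1) scale were found for 4 higher and 5 lower genes in KO1 and for 5 higher and 9 lower genes in KO2. Over all genes tested, 14.8% were beyond 2-fold higher and 14.5% lower in KO1, and 15.2% each in KO2.

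The largest rises were those of RPL37, RPL14, RPSA, RPL15 and RPL27A. RPL37, a zinc-binding protein of the large subunit (gene at chr5:40825262-40835335), measured 59.1 and 59.7 FPKM in WT, 154 and 152 in KO1 and 141 and 127 in KO2. All 4 knockout libraries lay above both WT libraries. The ratio of mean FPKM to WT was 2.58 in KO1 (log2 difference 1.35, SE 0.05, limma Benjamini-Hochberg adjusted p 1.12e-05) and 2.26 in KO2 (1.16, SE 0.05, adjusted p 1.81e-05). RPL14 (chr3:40457292-40468587), a large subunit protein, measured 39.2 and 37.1 FPKM in WT, 90.9 and 90.6 in KO1 and 88.6 and 87.1 in KO2. Its libraries were again apart, with log2 differences of 1.23 in KO1 and 1.18 in KO2 (SE 0.03 each).

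RPSA (chr3:39406689-39412542), the small subunit protein that is also known as the laminin receptor, measured 141 and 140 FPKM in WT, 321.5 and 320.7 in KO1 and 329 and 313 in KO2. It was the only small subunit gene beyond 2-fold higher in KO1, with a ratio to WT of 2.28 and a log2 difference of 1.18 in both knockout groups (SE 0.03, limma adjusted p 3.39e-06 and 3.35e-06). RPL15 (chr3:23916545-23924374), a large subunit protein, measured 89.3 and 87.9 FPKM in WT, 184 and 182 in KO1 and 182 and 177 in KO2. RPL27A (chr11:8682411-8714759), also of the large subunit, measured 62.5 and 61.8 FPKM in WT, 125 and 125 in KO1 and 137 and 129 in KO2. In both genes every knockout library was above every WT library, with log2 differences of 1.04 and 1.01 for RPL15 in KO1 and KO2 and of 1.0 and 1.08 for RPL27A (SE 0.03). RPL31, of the large subunit, measured 107 and 106 FPKM in WT, 169 and 169 in KO1 and 145 and 132 in KO2. It was higher in both groups (0.66 and 0.37) and lower in KO2 than in KO1 (-0.29).

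The largest falls were those of RPL7, RPL30, RPS28, RPL35A, RPS12 and RPS29. RPL7 (chr8:73290267-73295789), a large subunit protein, measured 488 and 468 FPKM in WT, 168 and 162 in KO1 and 147.2 in both KO2 libraries. WT was higher in every library, by a ratio of mean FPKM of 2.90 over KO1 and 3.25 over KO2 (log2 differences -1.53 and -1.69, SE 0.03, limma Benjamini-Hochberg adjusted p 1.95e-06 and 1.42e-06). RPL30 (chr8:98024851-98046469), also of the large subunit, measured 153 and 148 FPKM in WT, 59.2 and 58.8 in KO1 and 54.4 and 46.8 in KO2. Its log2 difference was -1.34 in KO1 and -1.56 in KO2 (SE 0.07). RPL30 shares 21.6% of its exon length with an antisense gene, and without a stated strand setting reads of both strands cannot be told apart.

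RPS12 (chr6:132814441-132817564) measured 1262 and 1242 FPKM in WT, 567 and 571 in KO1 and 570.5 and 539.7 in KO2. This most abundant ribosomal protein messenger RNA of WT stood 2.20-fold lower in KO1 and 2.26-fold lower in KO2 (log2 differences -1.14 and -1.17, SE 0.03). RPL35A (chr3:197949980-197956610), a large subunit protein whose loss is a known cause of Diamond-Blackfan anemia, measured 279 and 266 FPKM in WT, 125 and 124 in KO1 and 109 and 94.7 in KO2. RPS29 (chr14:49570984-49599164), a zinc-binding protein of the small subunit, measured 24.6 and 26.3 FPKM in WT, 12.8 and 12 in KO1 and 11.1 and 9.46 in KO2. Both fell in both groups, by -1.12 and -1.41 (RPL35A) and -0.98 and -1.23 (RPS29) on the log2 scale, with no overlap between WT and knockout libraries.

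RPS28 (chr19:8321158-8323340), a small subunit protein near the exit of the messenger RNA channel, measured 158 and 172 FPKM in WT, 60.5 and 63.6 in KO1 and 68.5 and 56.8 in KO2, a log2 difference of -1.39 in both groups (SE 0.10). Its pseudogene RPS28P7 moved the other way, from 935 and 948 FPKM in WT to 1606 and 1692 in KO1 and 1728 and 1593 in KO2. Summed over the libraries of a group, RPS28P7 took 7896 reads in WT, 15945 in KO1 and 13325 in KO2. With the reads of RPS28 and its 3 pseudogenes added together, the log2 difference of their share of reads was -0.06 in KO1 and -0.02 in KO2, against -1.27 and -1.23 for RPS28 alone. The fall of RPS28 is therefore uncertain: it was not seen once reads on near-identical copies were counted with it.

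**Figure D2:**
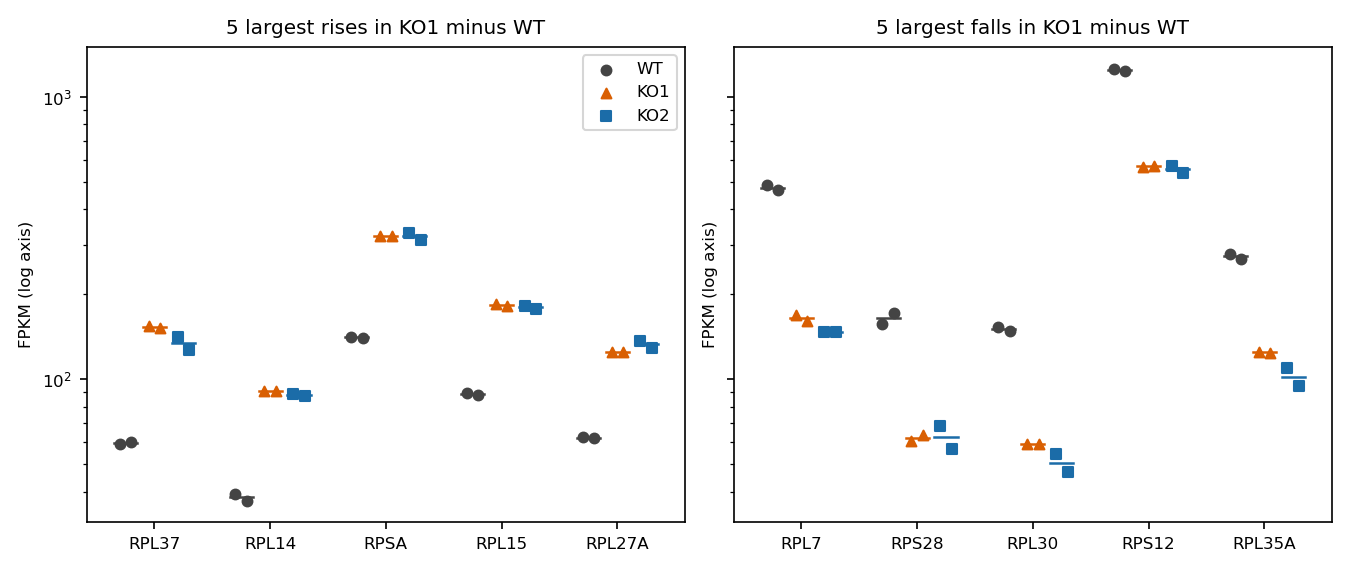
FPKM on a log axis in each of the 6 libraries for the 5 ubiquitous genes with the largest rise (left) and the largest fall (right) in KO1 minus WT. Points are single libraries of WT, KO1 and KO2 and bars the mean of 2. In all 10 genes the WT points stand clear of the knockout points, with RPL37 at 59.1 and 59.7 FPKM in WT against 127 or more in the knockout libraries.

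Some members are known for work beyond a structural part of the ribosome. Those described here were not among the genes set by the rule for describing members by size of change or level, and were picked for their roles after values were seen. RPL5 and RPL11 bind 5S ribosomal RNA and, when free, the ubiquitin ligase MDM2. RPL11 measured 157 and 160 FPKM in WT, 183 and 181 in KO1 and 162 and 150 in KO2 and was called higher in KO1 (log2 difference 0.20, limma adjusted p 0.00698). In KO2 its value of -0.03 was not called, and read totals alone gave 0.14. Its KO2 minus KO1 difference was -0.22 (limma adjusted p 0.017). RPL5 measured 246 and 241 FPKM in WT, 238 and 233 in KO1 and 222.5 and 222.0 in KO2, and its call in KO2 (-0.13, limma adjusted p 0.00384) turned to 0.12 under quantile normalization.

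The acidic proteins RPLP0, RPLP1 and RPLP2 form the stalk that recruits elongation factors. RPLP1 fell from 351 and 346 FPKM in WT to 179 and 179 in KO1 and 167 and 156 in KO2 (log2 differences -0.96 and -1.10). RPLP2 rose from 149 and 161 FPKM to 201 and 203 in KO1 and 183 and 173 in KO2 (0.38 and 0.20). RPLP0, the base of the stalk, was not called in either group, at -0.06 and -0.07 (limma adjusted p 0.107 and 0.0657), and stood between 411 and 443 FPKM in all libraries.

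RPS6, the substrate of S6 kinase downstream of mTOR, measured 422 and 399 FPKM in WT, 336 and 353 in KO1 and 333 and 317 in KO2. It was lower in both groups (-0.25 and -0.34), and its call in KO1 was lost with read totals alone (-0.12, limma adjusted p 0.0765). RPS27A, made as a fusion with ubiquitin, rose from 208 and 197 FPKM in WT to 300 and 320 in KO1 and 294 and 266 in KO2 (0.61 and 0.47). RPS19, the gene most often mutated in Diamond-Blackfan anemia, fell from 252 and 269 FPKM in WT to 142.5 and 143.0 in KO1 and 153 and 143 in KO2 (-0.86 and -0.81).

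Among the genes with the highest WT levels, RPL41 measured 1060 and 1084 FPKM in WT, 628 and 640 in KO1 and 670 and 616 in KO2, and fell in both groups (log2 differences -0.76 and -0.74, SE 0.05). RPL8 measured 1069 and 1132 FPKM in WT, 954 and 969 in KO1 and 915 and 818 in KO2. Its call in KO1 (-0.19, limma adjusted p 0.0341) did not hold without any WT or KO1 library in turn and turned to 0.06 under quantile normalization. Its call in KO2 (-0.35) was lost without WT replicate 2 (limma adjusted p 0.0528). RPL10, which helps the subunits to join, measured 166 and 168 FPKM in WT, 83.2 and 85.4 in KO1 and 89.1 and 86.0 in KO2, a fall of 0.98 and 0.92 on the log2 scale. RPL10 shares 52.7% of its exon length with genes on the other strand. RPL3, which lies at the peptidyl transferase centre, measured 372 and 370 FPKM in WT, 262 and 254 in KO1 and 259 and 248 in KO2 (-0.52 and -0.55).

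The 9 ubiquitous genes called in neither comparison included RPL10A, RPL12, RPL13, RPL26, RPL36A, RPL39, RPLP0 and RPS10. For the 3 of lowest level the counts are small: RPS10 measured 0.962 and 1.18 FPKM in WT, 0.891 and 0.746 in KO1 and 1.08 and 1.07 in KO2. With its pseudogenes added, the log2 difference of the RPS10 family's share of reads was 1.67 in KO1 and 1.75 in KO2, so no statement on RPS10 itself is made. RPL36A measured 2.77 and 2.65 FPKM in WT, 2.29 and 2.29 in KO1 and 2.45 and 2.80 in KO2. RPL26 measured 12.6 and 10.9 FPKM in WT, 10.5 and 12.3 in KO1 and 10.3 and 9.47 in KO2, and its KO1 and WT libraries overlapped.

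KO2 and KO1 were also compared with each other. Of the 75 genes, 22 were lower and 2 higher in KO2 than in KO1 (limma, Benjamini-Hochberg adjusted p below 0.05), and 51 were not called. Over all genes 26.2% were called, 11.2% higher and 15.0% lower, and the median of the 75 genes was -0.10 beside -0.01 over all genes. The lower calls were 19 of 44 large subunit genes (43.2%) and 3 of 31 small subunit genes (9.68%). Both higher calls were small subunit genes (6.45% of 31). Both small subunit shares were below those of all genes, and this split was not counted under the other scalings. The count of lower genes was not stable: it was 3 without KO1 replicate 1 or 2, 9 without KO2 replicate 2, 10 without WT replicate 1 or 2 and 28 without KO2 replicate 1. The count of higher genes was 1 without KO1 replicate 1, KO1 replicate 2 or KO2 replicate 1, and 4 without KO2 replicate 2.

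RPL35, a large subunit protein near the mouth of the exit tunnel, showed the widest gap. It measured 553 and 567 FPKM in WT, 433 and 442 in KO1 and 280 and 253 in KO2, so that KO2 lay below KO1 and KO1 below WT. Its difference between KO2 and KO1 was -0.71 (SE 0.05, limma adjusted p 0.00155), and its lower call in KO1 against WT (-0.36) was lost under quantile normalization (-0.05, limma adjusted p 0.410). RPL21, of the large subunit, measured 207 and 206 FPKM in WT, 180 and 182 in KO1 and 125 and 108 in KO2, a difference of -0.63 between KO2 and KO1 (SE 0.07). RPL7A, of the large subunit, measured 587 and 592 FPKM in WT, 823 and 825 in KO1 and 615 and 601 in KO2. It was higher in KO1 than in WT (0.48, limma adjusted p 3.09e-05), and KO2 was lower than KO1 (-0.44, limma adjusted p 8.57e-04). RPL7A shares 12.7% of its exon length with small nucleolar RNA genes in its introns and 38.3% of its 50-base words with other genes.

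RPS4X, the X-linked copy of a small subunit gene, and RPS27 were the 2 genes that were higher in KO2. RPS4X measured 246 and 241 FPKM in WT, 180 and 175 in KO1 and 235 and 224 in KO2, so its lower value was found in KO1 (KO2 minus KO1 0.37, SE 0.03, limma adjusted p 0.00234). RPS27 measured 371 and 347 FPKM in WT, 404 and 389 in KO1 and 497 and 468 in KO2. Its difference between KO2 and KO1 was 0.28 (SE 0.05), and its small rise in KO1 over WT (0.15, limma adjusted p 0.0405) did not hold without any WT or KO1 library in turn. RPS27 shares 66.5% of its 50-base words with other genes, the reads of which cannot be told apart where such words are all a read covers.

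A ribosomal protein gene tended to move with the genes around it. For 74 of the 75 ubiquitous genes at least 3 other protein-coding genes were tested within 1 Mb of the start, with a median of 18.5 such neighbours. The log2 difference of the member and the median of its neighbours had a Pearson correlation of 0.79 in KO1 minus WT and 0.77 in KO2 minus WT across the 74 genes (Spearman 0.79 and 0.77). The same figures over 11230 other protein-coding genes were 0.35 and 0.36 (Spearman 0.42 and 0.43), and over 77 mitochondrial ribosomal protein genes 0.60 and 0.61 (Spearman 0.62 and 0.64). These are descriptions without a test, the points share libraries and WT controls, and 12 of the 74 members share a neighbour with another member. Of the called members, 49 of 59 in KO1 and 50 of 60 in KO2 had the sign of their neighbours. In KO2 minus KO1 the Pearson value of 0.76 stood above a Spearman value of 0.45, and 18 of 24 called members had the sign of their neighbours.

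**Figure D3:**
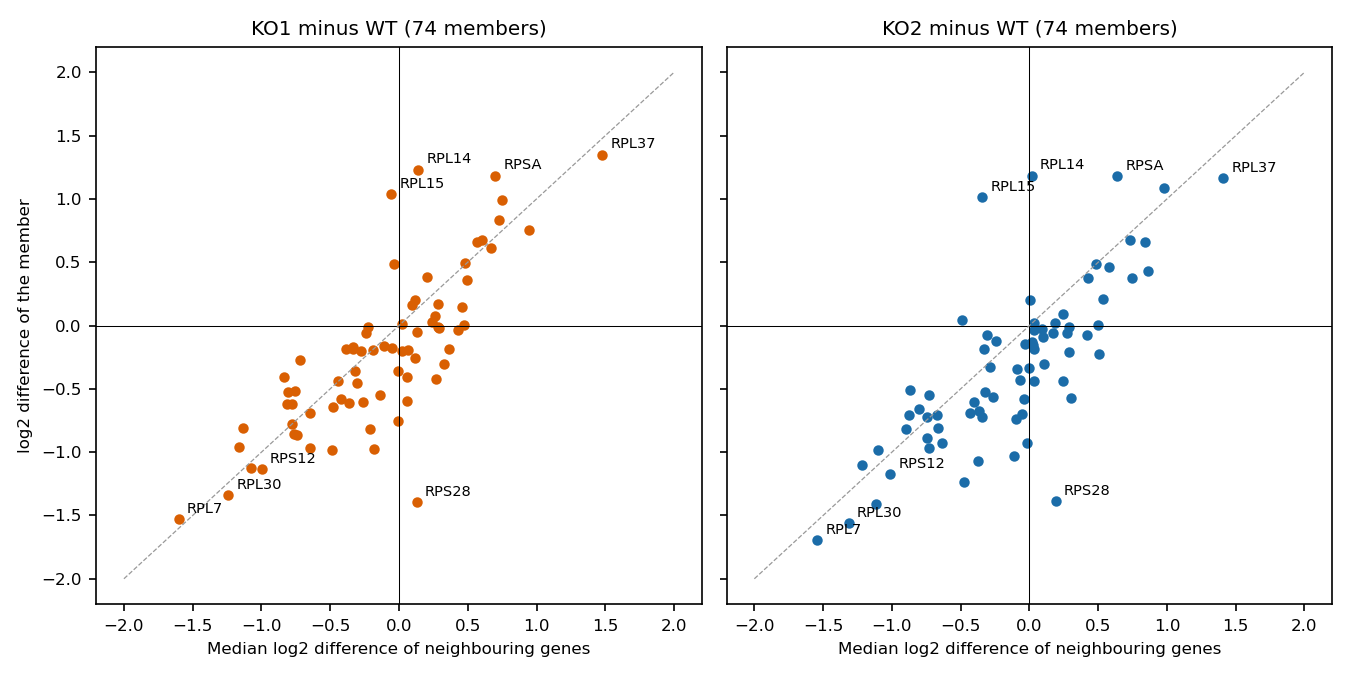
Each point is 1 of 74 ubiquitous genes: the median log2 difference of the tested protein-coding genes within 1 Mb (x axis) against the log2 difference of the gene itself (y axis), for KO1 minus WT (left) and KO2 minus WT (right). The dashed line marks equal values. RPL7 and RPL37 lie near the line at the ends, while RPL14, RPL15 and RPS28 lie far from it. RPS28 is drawn without the reads of its pseudogenes, so its place is uncertain.

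The genes at the ends show this. RPL37 rose by 1.35 in KO1 among 5 neighbours with a median of 1.48, and RPL7 fell by 1.53 among 9 neighbours with a median of -1.60. RPL30 (-1.34) had 9 neighbours at -1.24, RPL35A (-1.12) had 8 at -1.08 and RPS12 (-1.14) had 3 at -0.999. In KO2 minus KO1, RPL35 (-0.71) had 14 neighbours at -0.37, RPL21 (-0.63) had 10 at -0.48, RPL7A (-0.44) had 23 at -0.33 and RPS4X (0.37) had 6 at 0.36. Other members departed from their surroundings: RPL14 rose by 1.23 among 6 neighbours at 0.14, and RPL15 rose by 1.04 among 5 at -0.06. RPS28 stood at -1.39 among 30 at 0.13, but its departure is uncertain. With the reads of its pseudogenes added, the log2 difference of its share of reads in KO1 was -0.06.

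By chromosome, the counts of directions were uneven. On chromosome 19, which holds 12 ubiquitous genes, 11 were lower in KO1 and 11 in KO2. The exception, RPS15, measured 174 and 185 FPKM in WT, 201 and 202 in KO1 and 192 and 190 in KO2 and was called higher in KO1 (0.17). On chromosome 3, RPL14, RPL15, RPL29 and RPSA were higher in both groups and RPL24, RPL32 and RPL35A lower. On chromosome 11, 4 of 5 genes were higher in KO1 and 3 of 5 in KO2.

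The paralogs did not follow the ubiquitous genes as a group: among the 6 that passed the filter on low values, 3 were higher and 3 lower in each knockout group. RPL22L1, a paralog that can take the place of RPL22 in the large subunit, changed most of all members. It measured 82.8 and 79.5 FPKM in WT, 5.58 and 4.82 in KO1 and 3.53 and 2.55 in KO2, so the mean was 15.6 times higher in WT than in KO1 and 26.7 times higher than in KO2. On the log2(FPKM + 1) scale, which understates changes of low genes, the differences were -3.73 and -4.36 (SE 0.13, limma Benjamini-Hochberg adjusted p 7.69e-06 and 4.60e-06), among 8 neighbouring genes with medians of -0.24 and -0.34. RPL22 itself measured 24.0 and 22.2 FPKM in WT, 33.1 and 32.6 in KO1 and 30.9 and 29.4 in KO2, a rise of 0.49 and 0.37. RPL22L1 thus went from 345% and 359% of RPL22 in the WT libraries to 16.9% and 14.8% in KO1 and 11.4% and 8.66% in KO2. Their order turned round in all 4 knockout libraries.

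Each ratio of paralog to parent was compared over libraries, 4 knockout against 2 WT, by a two-sided exact permutation test, whose smallest possible p is 0.133. A ratio within a library does not depend on the scaling between libraries. The p was 0.133 for all pairs with reads in both genes, so the design could not reach 0.05 for any of them, alone or adjusted.

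RPL7L1, a paralog of RPL7 with a role in early assembly, measured 35.7 and 35.3 FPKM in WT, 24.1 and 23.8 in KO1 and 19.6 and 20.8 in KO2 (log2 differences -0.55 and -0.78). Because RPL7 fell further, RPL7L1 rose as a share of RPL7, from 7.30% and 7.54% in WT to 14.3% and 14.7% in KO1 and 13.3% and 14.1% in KO2. RPL36AL measured 139 and 135 FPKM in WT, 104 and 100 in KO1 and 101 and 97.2 in KO2 (-0.42 and -0.47). It had more reads than its parent RPL36A in every library, where the level of RPL36A is uncertain.

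RPL26L1, RPL39L and RPS27L were higher in the knockout libraries. RPL26L1 measured 35.2 and 36.2 FPKM in WT, 68.0 and 63.3 in KO1 and 67.8 and 66.5 in KO2 (0.86 and 0.89, SE 0.04), while RPL26 did not pass the test. RPL39L, known from testis and from cancer lines as a second form of the exit tunnel protein RPL39, measured 5.99 and 5.85 FPKM in WT, 9.71 and 12.1 in KO1 and 12.7 and 12.2 in KO2 (0.78 and 0.96, SE 0.10). It rose among 8 neighbouring genes with medians of -1.06 and -1.16. As a share of RPL39 it went from 3.96% and 3.89% in WT to 7.16% and 9.40% in KO1 and 7.65% and 8.62% in KO2. RPL39 itself measured 151 and 150 FPKM in WT, 136 and 129 in KO1 and 165 and 142 in KO2, with no call in either group in the reported fit.

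RPS27L, a paralog that resembles RPS27, measured 3.79 and 3.44 FPKM in WT, 4.75 and 5.40 in KO1 and 5.32 and 5.30 in KO2 (0.40 and 0.45, SE 0.07). Its share of RPS27 was 1.02% and 0.993% in WT, 1.17% and 1.39% in KO1 and 1.07% and 1.13% in KO2, so WT values were lower but by a narrow margin. RPL3L, the muscle form of RPL3, stayed under 1 FPKM: 0.0504 and 0.0197 in WT, 0.171 and 0.175 in KO1 and 0.259 and 0.312 in KO2, and was not tested. RPL10L, the testis form of RPL10, had 0 reads in all 6 libraries. The read-through names had 0 reads except 0.142 FPKM of RPL17-C18orf32 in WT replicate 2, and RPS19BP1 fell from 20.1 and 20.4 FPKM in WT to 8.76 and 8.63 in KO1 and 7.77 and 7.29 in KO2.

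**Figure D4:**
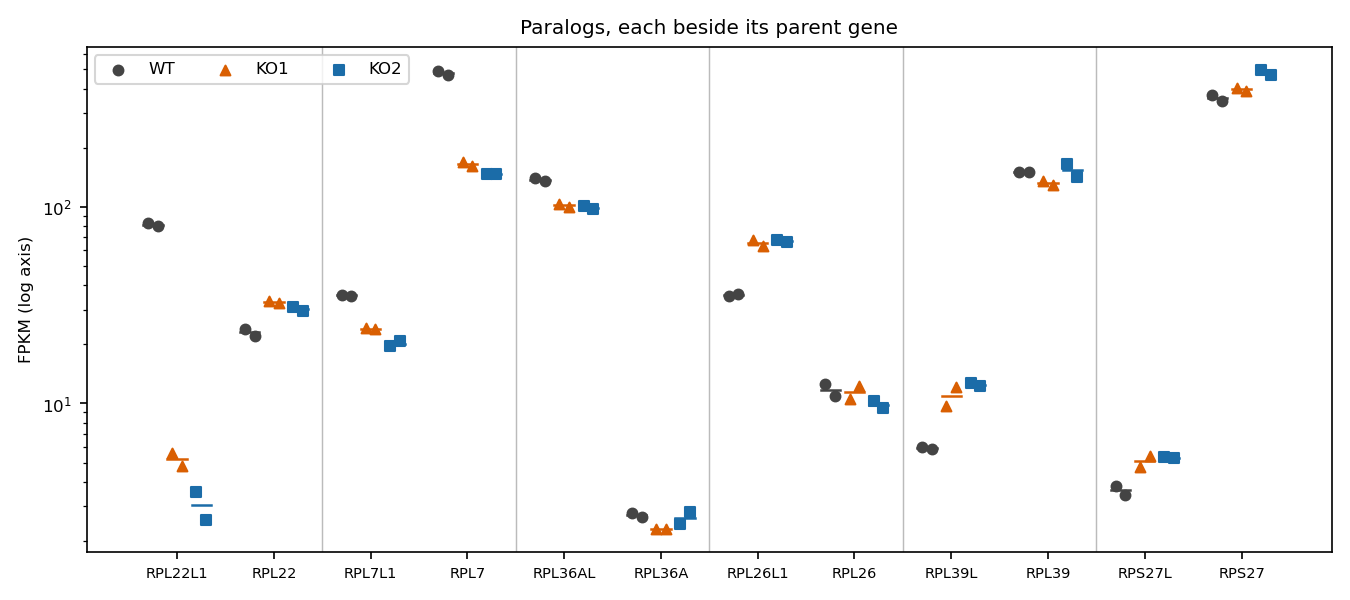
FPKM on a log axis in each library for the 6 paralogs that were tested, each followed by its parent gene. Points are single libraries and bars the mean of 2. RPL22L1 stands above RPL22 in WT (82.8 and 79.5 against 24.0 and 22.2 FPKM) and below it in all 4 knockout libraries.

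Reads on pseudogenes were a small part of the whole. GENCODE 29 names 1136 pseudogenes of the members, of which 540 had reads in any library and 114 reached 1 FPKM in 2 libraries. Pseudogenes held 4.49% and 4.62% of the reads of members and pseudogenes in WT, 4.66% and 4.71% in KO1 and 4.77% and 4.73% in KO2. For 22 of the 75 genes the share was higher, and for 10 lower, in all 4 knockout libraries than in both WT libraries. No background was counted for such shares, and with so few libraries some separate by spread alone. Some also rest on very few reads. RPS16, for one, had 0% in both WT libraries and 0.0168% to 0.0244% in the knockout libraries. The 2 counts are thus no result about the genes. For RPL7 it was 17.1% and 17.3% in WT, 16.4% and 17.3% in KO1 and 17.3% and 17.9% in KO2. RPL7P1, its pseudogene, fell with it (log2 difference -1.54 in KO1), and RPL15P3 rose with RPL15 (1.28 in KO1). Without overlap, the group means differed by 3 percentage points or more in 7 genes: RPL9, RPL17, RPL22, RPL32, RPS10, RPS28 and RPSA. On pseudogenes were 37.0% and 35.3% of RPS28 family reads in WT and 71.4% to 73.6% in the knockout libraries. For RPL17 the share was 2.19% and 3.27% in WT, 6.58% and 5.61% in KO1 and 13.5% and 12.5% in KO2. It was higher for RPL22 (9.48% and 11.1% in WT, 14.2% to 15.4% in the knockout libraries) and lower for RPSA (13.6% and 14.2% in WT, 9.65% to 10.1%). RPL9 had fewer reads than its pseudogene RPL9P9 in every library, and both were higher in KO1 (0.36 and 0.57). Among the 31 ubiquitous genes that share under 10% of their 50-base words with other genes, 19 were lower and 8 higher in KO1 and 22 lower and 6 higher in KO2. Among the 44 that share more, 23 were lower and 10 higher in KO1 and 25 lower and 8 higher in KO2.

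**Figure D5:**
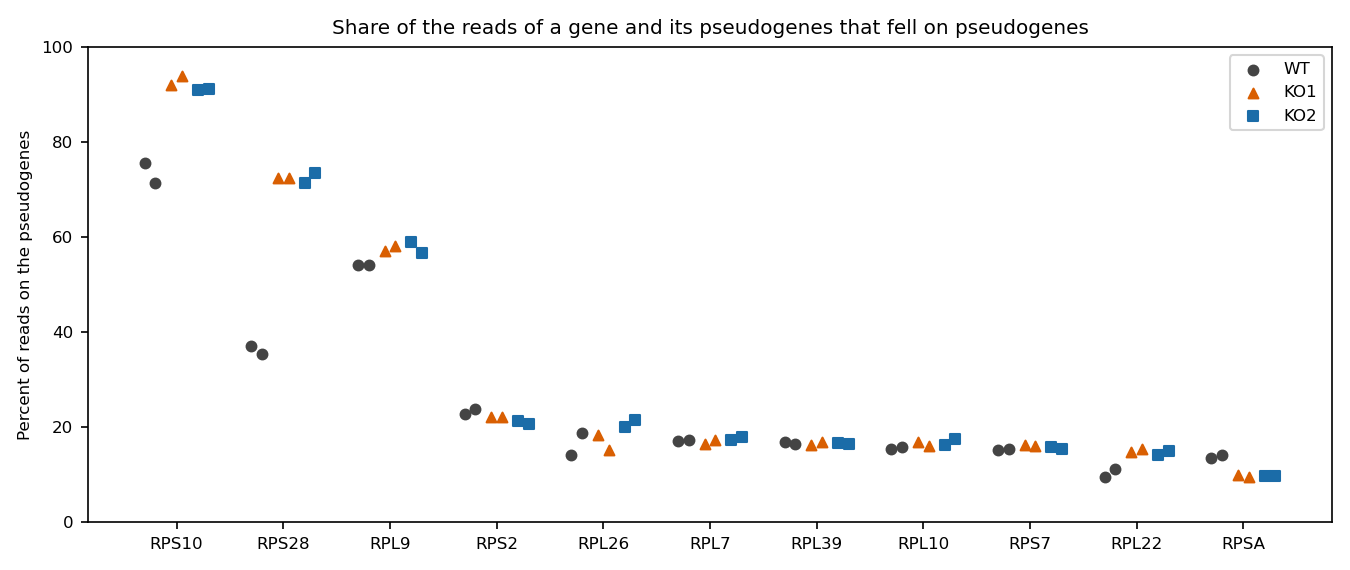
Percent of the reads of a ubiquitous gene and its pseudogenes that were assigned to the pseudogenes, in each library, for the 11 genes with a mean of 10% or more. RPS10 and RPS28 show the widest gaps between WT and knockout libraries, with 37.0% and 35.3% for RPS28 in WT against 71.4% to 73.6% in the knockout libraries, while the WT and knockout points of RPL7 and RPL39 overlap.

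As a share of all reads, the 75 ubiquitous genes took 5.10% and 5.05% in WT, 4.86% and 4.92% in KO1 and 4.77% and 4.51% in KO2. Every knockout library was below both WT libraries, and the two-sided exact permutation p for 4 knockout against 2 WT libraries was 0.133, the smallest the design allows. With pseudogenes added the means were 5.32%, 5.13% and 4.87%. The share of the 79 mitochondrial ribosomal protein genes, which belong to a separate ribosome, was 0.484% and 0.478% in WT, 0.458% and 0.457% in KO1 and 0.460% and 0.447% in KO2. That of the 8 paralogs was 0.0621% and 0.0600% in WT, 0.0424% in both KO1 libraries and 0.0398% and 0.0401% in KO2. It does not show a fall of the paralogs as a set. RPL22L1 alone went from 4161 and 3396 reads in WT to 303 and 255 in KO1 and 161 and 110 in KO2. Of the 6 paralogs tested, 3 were higher and 3 lower in each knockout group.

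The mitochondrial ribosomal protein genes showed a split like that of the cytosolic ones. Of 78 tested, 45 were lower and 14 higher in KO1 (median -0.19), and 50 lower and 13 higher in KO2 (median -0.32). MRPL47 and MRPL4 had the lowest differences, and MRPS18B and DAP3 the highest. MRPL47 fell from 63.8 and 62.9 FPKM in WT to 19.1 and 18.1 in KO1 and 17.2 and 17.9 in KO2. DAP3, a protein of the small mitochondrial subunit, rose from 26.4 and 24.95 FPKM in WT to 40.05 and 40.6 in KO1 and 59.5 and 60.0 in KO2. Counts for these and the following pathway lists are to be read beside 39.3% higher and 38.6% lower of all genes in KO1 and 39.1% and 39.8% in KO2. Over protein-coding genes outside the members, these shares were 39.8% and 44.3% in KO1 and 39.5% and 45.5% in KO2.

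Most tested genes of ribosome building were lower. Of 47 tested genes of nucleolar processing and assembly, 35 were lower and 8 higher in KO1 (median -0.41), and 34 lower and 6 higher in KO2 (median -0.61). FBL, the methyltransferase fibrillarin, fell from 109 and 103 FPKM in WT to 43.8 and 41.2 in KO1 and 43.7 and 41.1 in KO2, and AAMP fell by 1.28 in both groups. GNL3 (nucleostemin) rose from 30.2 and 30.0 FPKM in WT to 77.0 and 73.5 in KO1 and 67.2 and 72.0 in KO2, and BRIX1, an assembly factor of the large subunit, rose by 1.21 and 0.85. Of 19 genes of RNA polymerase I and rRNA synthesis, 10 were lower and 5 higher in KO1, and 11 lower and 4 higher in KO2. POLR2H, a subunit shared by the RNA polymerases, fell from 36.2 and 37.2 FPKM to 12.8 and 14.2 in KO1 and 13.4 and 13.6 in KO2, and CD3EAP fell by 1.55 in both. ZNRD1 rose by 1.06 and 0.92, and TAF1D by 0.92 in KO1 with a value of 0.15 in KO2. The KO2 call of TAF1D was lost without WT replicate 1 or 2, KO1 replicate 1 or 2, or KO2 replicate 2.

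Partners of the ribosome in translation went both ways. Of 16 tested elongation factors and other TOP messenger RNAs, 8 were lower and 7 higher in KO1, and 8 lower and 5 higher in KO2. PABPC1, the poly(A)-binding protein, fell from 447 and 445 FPKM in WT to 162.5 and 162.3 in KO1 and 202 and 218 in KO2, and EIF3E fell by 1.17 and 1.16. EIF4B rose from 86.5 and 83.2 FPKM to 164 and 161 in KO1 and 170 and 174 in KO2, and EIF2S3 rose by 0.92 and 0.81. Of 22 initiation factors, 12 were lower and 7 higher in KO1, and 13 lower and 4 higher in KO2. EIF1, which guards start codon choice, fell from 231.2 and 230.6 FPKM in WT to 65.4 and 64.6 in KO1 and 58.4 and 57.7 in KO2, and EIF4G1, the scaffold of the cap-binding complex, fell by 1.59 and 1.49. EIF3M and EIF1AX rose, by 1.02 and 1.0 in KO1 and by 0.87 and 0.84 in KO2. FAU, a ribosomal protein made as a fusion, was not called in either group, and the small subunit scaffold RACK1 was called higher, at 0.23 in KO1 and 0.11 in KO2.

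Genes that govern ribosome production went both ways. Of 18 tested genes of growth control, 9 were higher and 5 lower in KO1 (median 0.25), and 10 higher and 7 lower in KO2 (median 0.27). LARP1, which binds the TOP tract, fell from 70.05 and 70.1 FPKM in WT to 40.8 and 39.9 in KO1 and 40.1 and 38.9 in KO2, and MAX, the partner of MYC, fell by 0.88 and 0.94. EIF4EBP1, the mTOR-controlled repressor of cap-dependent translation, rose from 32.9 and 30.7 FPKM to 60.8 and 62.6 in KO1 and 53.5 and 49.9 in KO2. DEPTOR, an inhibitor of mTOR, rose by 0.63 and 1.52, and its call in KO1 was lost without KO1 replicate 2 (0.55, limma adjusted p 0.0579). Of 10 genes of ribosome surveillance and the stress response, 3 were higher and 4 lower in KO1, and 4 higher and 4 lower in KO2. CDKN1A, the cell cycle inhibitor p21, rose from 8.88 and 7.39 FPKM to 46.9 and 45.0 in KO1 and 52.2 and 51.5 in KO2. HBS1L, which rescues stalled ribosomes, fell by 0.98 and 1.2, and LTN1, a ubiquitin ligase for stalled chains, rose by 0.66 and 0.68.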

How the data were processed

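The 6 deposited files give FPKM per gene, which the authors computed before deposit. The submitters' processing notes name HISAT2 2.0.5, featureCounts 1.5.0-p3 and hg38. How strand and multiply mapped reads were treated was not given in the sources used here. Every one of 58735 IDs matched GENCODE release 29, the source of names, exons and GRCh38 coordinates. FPKM times joined exon length was a whole multiple of 1 step for 100% of values (tolerance 0.1 of a step), which gave the reads, and 1 read in 1 kb equalled 0.0429 to 0.0544 FPKM. The FPKM denominator was 0.936 to 1.05 times the total of those reads.

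Genes with at least 1 FPKM in 2 libraries (16046, of them 82 of the 87 members) were tested on log2(FPKM + 1) with limma 3.58.1 in R 4.3.3, a mean-variance trend, group means over the 6 libraries and Benjamini-Hochberg adjustment. The fit was also run on simulated data in which few genes changed, which does not test the scaling between libraries. The named genes were every paralog, its parent and the other names, the 5 highest and 5 lowest called members in each comparison, the 3 highest and lowest WT levels, and for each list the 2 highest and 2 lowest called genes. Members and lists were chosen with earlier results of these data known. Neighbours were tested protein-coding genes within 1 Mb. Promoters came from RefSeq. Ratios and read shares were compared by an exact permutation test. Alternatives varied the pseudocount, filter, scaling, model, threshold and libraries. The numbers cover counting error and the spread between libraries only. Some genes are not reported here by name.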

Additional observations from a re-analysis of the deposited data

Results flagged for a closer look

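Among the named members, 12 differed between KO2 and KO1 in a direct test of KO2 minus KO1 (limma, Benjamini-Hochberg adjusted p below 0.05 over all genes). The log2 differences of the ubiquitous genes were -0.71 for RPL35, -0.63 for RPL21, -0.44 for RPL7A, -0.29 for RPL35A, -0.29 for RPL31, -0.27 for RPL17, -0.16 for RPL7, 0.28 for RPS27 and 0.37 for RPS4X. They were -0.63 for RPL22L1, -0.24 for RPL7L1 and -0.19 for RPS19BP1. Under another scaling the calls of RPL35A, RPL17, RPL7 and RPS19BP1 were lost. Among all ubiquitous genes, 10 of the 22 lower calls and both of the 2 higher calls were kept in all 4 other scalings.

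The calls of RPL35, RPL21, RPL7A and RPS4X held without each of the 6 libraries in turn. The calls of RPL22L1, RPL35A, RPL31, RPL7, RPL7L1, RPL17, RPS19BP1 and RPS27 were lost without KO1 replicate 1 and without KO1 replicate 2. Without the first, their log2 differences were -0.54, -0.28, -0.29, -0.13, -0.23, -0.26, -0.18 and 0.31, with limma adjusted p of 0.118, 0.156, 0.0755, 0.125, 0.0668, 0.1498, 0.1296 and 0.0620. The calls of RPL22L1, RPL35A, RPL31, RPL17 and RPS19BP1 were also lost without either WT library, which left the difference itself as it was, since fewer libraries then set the spread. Those of RPL7 (either KO2 library), RPS27 (KO2 replicate 1), RPL17 and RPS19BP1 (KO2 replicate 2) were lost without a KO2 library too.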

How the results depend on the processing

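Of 1629 values of named members under the alternatives, 47 gained and 80 lost the call. The sign turned in 37, of which 34 were called in neither fit. The other 3 were RPL8 in KO1 minus WT, called in the reported fit (0.0601, quantile normalization, limma adjusted p 0.227), and RPS4X in KO2 minus WT, called in the alternative (0.16 with quantile normalization, 0.0762 with voom). Genes called higher in KO2 minus WT, 14 in the reported fit, numbered 28 with quantile normalization, 22 with library size alone and 25 with voom. In KO2 minus KO1, the 2 higher genes were 1 with no filter, 4 with quantile normalization, 5 with voom, 0 against a fold of 1.2 and 1 to 4 with a library left out. The 22 lower genes were 8 with no filter, 12 with library size alone, 10 at equal protein-coding medians, 8 without the variance trend, 3 against a fold of 1.2 and 3 to 28 with a library left out. A left-out library leaves a lone one, assumed to vary like the others. The counts in KO1 minus WT and the lower count in KO2 minus WT stayed within 1.5 times under every alternative. Replicate numbers did not pair the libraries (correlations of deviations 0.02, -0.00 and -0.04). With the replicate block the KO2 minus KO1 count of lower genes was 13, and the other 5 counts moved by at most 1.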
